A study of Mus musculus with 24 samples.

Results

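Among the 12091 genes of the deposited mouse expression table, 9 belong to the insulin-like growth factor (IGF) system examined here: the ligand *Igf1*, the receptors *Igf1r* and *Igf2r*, and the binding proteins *Igfbp2*, *Igfbp3*, *Igfbp4*, *Igfbp5*, *Igfbp6* and *Igfbp7*. All 9 were in the table. The genes were chosen by family membership together with measured values, namely the lower *Igfbp4* level of E0771-LG cells after knockdown of pleiotrophin (*Ptn*), so the member values of that comparison are given as a description with no test. The study blocked or depleted pleiotrophin, a secreted heparin-binding growth factor, in 4 experiments with 3 samples per group. 4T1 tumors, grown from a mouse mammary carcinoma line in BALB/c mice, and spontaneous tumors of FVB/N *MMTV-PyMT* mice, treated from 8 to 12 wk of age, came from animals given the control antibody C44 or the pleiotrophin antibody 3B10 at 15 mg/kg. Cultured E0771 cells (C57BL/6 mammary adenocarcinoma) and E0771-LG cells (derived from a lung metastasis of E0771) carried the *Ptn* shRNA (shPTN) or the pLKO vector with an EGFP-targeting sequence (shCtrl), and all 4 cell groups had been held in puromycin at 3 µg/ml for 6 wk. The knockdown rests on a single shRNA construct, and each cell group is a separately selected population, so construct, selection and loss of *Ptn* cannot be told apart. The *MMTV* promoter drives the PyMT oncogene mainly in mammary epithelium, and both kinds of tumor were sequenced in bulk with the host cells they contain.

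IGF1 and IGF2 act through the tyrosine kinase receptor IGF1R, which signals through PI3K-AKT and RAS-ERK and promotes growth and survival of mammary epithelial cells. IGF2R, the cation-independent mannose 6-phosphate receptor, takes up IGF2 for degradation and carries lysosomal enzymes from the Golgi. The secreted IGF-binding proteins hold IGFs outside the cell and can limit or prolong their action, and proteases release the bound ligand; IGFBP7 binds IGFs only weakly.

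The members split by sample type. *Igf1*, the circulating and locally made ligand, had 86 to 352 reads per *MMTV-PyMT* tumor but 0 to 2 in any cell line sample. Per kilobase of exon, cultured cells had *Igfbp4* as the most abundant member, with 60.3 CPM (reads scaled to library size) per kb in E0771 shCtrl, 70.0 in E0771 shPTN, 237 in E0771-LG shCtrl and 85.6 in E0771-LG shPTN cells. *Igfbp6* came next with 33.4, 23.3, 22.6 and 72.4 CPM per kb in the same order. *Igf1r* followed with 5.48, 8.06, 3.56 and 2.90 CPM per kb, and *Igf2r* with 1.56, 3.57, 1.92 and 2.16. The sample ranges of these neighbours did not overlap in any of the 4 cell groups. The other binding proteins were close to the detection limit in cells: *Igfbp3* had 0 reads in all 12 samples, *Igfbp5* 0 to 3, *Igfbp7* 0 to 6 and *Igfbp2* 0 to 3 in E0771 samples. *Igfbp2* reached 30 reads at most in E0771-LG samples.

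The tumors had another order. In *MMTV-PyMT* tumors given C44, *Igfbp5* stood at 1870 CPM per kb, above *Igfbp7* with 84.3, *Igfbp3* with 47.5, *Igfbp4* with 33.6, *Igf2r* with 25.3, *Igfbp2* with 22.1, *Igfbp6* with 4.17, *Igf1r* with 1.06 and *Igf1* with 1.05. Neighbours from *Igfbp7* down to *Igfbp2*, and *Igf1r* and *Igf1*, overlapped between samples. Per kb, *Igfbp5* ranked 9 among all table genes in the C44 and 4 in the 3B10 tumors. The 4T1 values do not map back to whole reads and were treated as already divided by length, on a scale of their own, so these levels are not compared with those of other samples. There *Igfbp4* led with 1071 units under C44, above *Igfbp7* (583) and *Igfbp3* (303), which overlapped, then *Igf2r* (125). *Igf1r* (27.9) and *Igfbp6* (12.1) overlapped, as did *Igf1* (1.35) and *Igfbp2* (0.628), with *Igfbp5* (5.08) between these pairs.

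**Figure D1:**
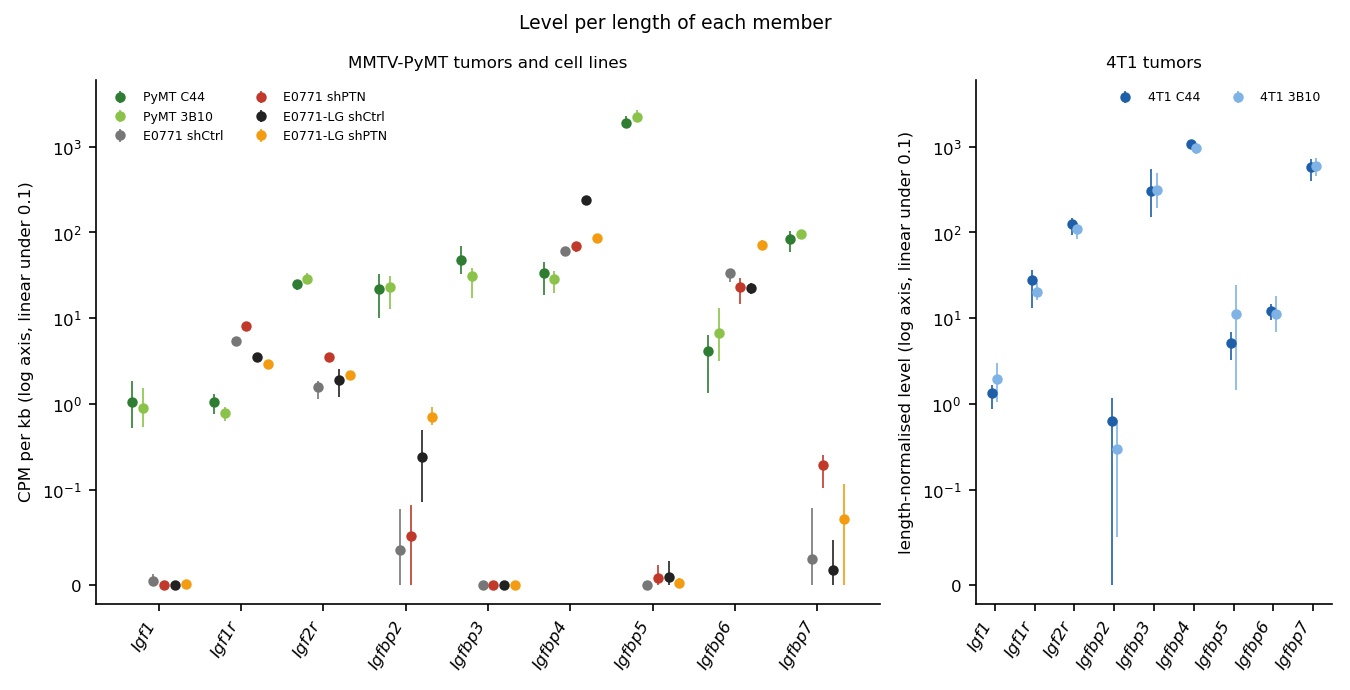
Level per length of each member: points are means of 3 samples, bars run from the lowest to the highest sample, on a log axis that is linear under 0.1 (CPM per kb at left, the separate 4T1 scale at right). *Igfbp4* leads in every cell group (60.3 to 237 CPM per kb) and *Igfbp5* in the *MMTV-PyMT* tumors (1870 and 2240).

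The member that drew the choice, *Igfbp4*, lies on chromosome 11 at 99041244 to 99054392 of GRCm38, on the plus strand. *Igfbp6*, on chromosome 15 at 102144362 to 102149511, is shown beside it because these binding proteins had opposite differences in E0771-LG cells. *Igfbp2* and *Igfbp5* are neighbours on chromosome 1, 5.46 kb apart on opposite strands. RefSeq promoter windows (GRCm38.p6) were found for 9 of 9 members. The 250 bases before the start are printed for chr11:99040994-99041243 (*Igfbp4*, plus strand) and chr15:102143936-102144185 (*Igfbp6*, plus strand), 5′ to 3′, with matches in capitals. The start is that of the RefSeq transcript, so the *Igfbp6* window, which ends at 102144185, stops short of the gene start given above, and distances are counted from the RefSeq start.
Igfbp4: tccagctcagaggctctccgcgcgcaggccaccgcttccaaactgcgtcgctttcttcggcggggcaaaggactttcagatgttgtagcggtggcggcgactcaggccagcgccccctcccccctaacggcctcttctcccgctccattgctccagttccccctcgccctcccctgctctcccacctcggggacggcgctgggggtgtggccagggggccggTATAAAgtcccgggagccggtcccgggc
Igfbp6: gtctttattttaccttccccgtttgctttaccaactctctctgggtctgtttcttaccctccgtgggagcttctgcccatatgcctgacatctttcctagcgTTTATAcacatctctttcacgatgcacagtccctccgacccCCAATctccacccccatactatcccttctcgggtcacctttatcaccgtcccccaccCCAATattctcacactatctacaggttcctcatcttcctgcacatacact
6 motifs were searched on both strands: the TATA, CCAAT and GC boxes and motifs for NF-κB, AP-1 and FOXO factors. The *Igfbp4* window held a TATA box, 28 bases before the start, and none of the others. The *Igfbp6* window held the TATA box letters on the opposite strand, 148 bases before the start, and CCAAT boxes at 107 and 50 bases. Of all 32851 windows of this length, 12.4% held a TATA box, 33.8% a CCAAT box, 32.7% a GC box, 4.65% the NF-κB motif, 6.75% the AP-1 motif and 3.17% the FOXO motif. These matches describe the letters and are not binding sites.

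*Ptn* itself was low and fell in both knockdowns. Log2 CPM of *Ptn* was 2.90, 2.18 and 2.28 in E0771 shCtrl and -0.63, 0.25 and 0.53 in E0771 shPTN cells, so 18.9% of the control level remained (log2 fold change -2.40, SE 0.37, limma adjusted p = 0.00159). It reached the filter level (at least 1) there in all 3 shCtrl samples but in only 2 shPTN samples. In E0771-LG cells it was 3.65, 4.51 and 3.74 against 1.42, 0.98 and 1.38, with 15.3% remaining (log2 fold change -2.71, SE 0.28, limma adjusted p = 6.3e-05). All 3 knockdown samples lay below all 3 controls in each line.

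In E0771-LG cells 5 of the 9 members passed the filter on low values, and 4 of these had groups that did not overlap, *Igfbp2* and *Igfbp6* higher and *Igf1r* and *Igfbp4* lower. *Igfbp2* passed only through its shPTN samples, which favours a higher value there. Groups did not overlap for 57.1% of all genes tested in this contrast, and 46.4% were called (24.3% higher and 22.1% lower). No test was made for the members here, and nothing is read from their count.

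The *Igfbp4* protein binds IGF1 and IGF2 and is cleaved by the pappalysin that *Pappa* encodes, a gene not in the table. *Igfbp4* had log2 CPM of 10.14, 10.02 and 9.93 in E0771-LG shCtrl and 8.48, 8.62 and 8.58 in shPTN cells. These values rest on 18109 to 20332 reads against 6685 to 7548. Every knockdown sample lay below every control, and within each group the samples were close together. The mean went from 10.03 (SD 0.11) to 8.56 (SD 0.07), a log2 difference of -1.47 (SE 0.09), which left 36.1% of the control level. Across the groups measured in CPM, *Igfbp4* was highest in E0771-LG shCtrl (10.03), then E0771-LG shPTN (8.56), then E0771 shPTN (8.26) and E0771 shCtrl (8.05), which overlapped, and last the *MMTV-PyMT* tumors given C44 (7.11) or 3B10 (6.93), which overlapped too.

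*Igfbp6*, which binds IGF2 in preference to IGF1, went the other way in E0771-LG cells, with log2 CPM of 4.43, 4.86 and 4.63 in shCtrl and 6.15, 6.49 and 6.33 in shPTN samples. All 3 knockdown samples stood above all 3 controls. The log2 difference was 1.68 (SE 0.14), or 3.21-fold. Per kb, *Igfbp6* (72.4 CPM per kb) thereby came near *Igfbp4* (85.6) in the knockdown cells, while in the controls it stood at 22.6 against 237.

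Of the receptors in E0771-LG cells, *Igf1r*, the signaling receptor, had log2 CPM of 5.83, 5.80 and 6.06 in shCtrl and 5.51, 5.67 and 5.64 in shPTN samples. The groups were apart by a narrow margin, with a log2 difference of -0.29 (SE 0.11) and 81.6% of the control level. *Igf2r* had 3.48, 4.58 and 4.22 against 4.34, 4.15 and 4.48, so the groups overlapped (log2 difference 0.23, SE 0.25). *Igfbp2*, a binding protein with an integrin-binding motif, had 3 to 16 reads in shCtrl and 21 to 30 in shPTN samples; it passed the filter only through the shPTN group, and its log2 difference of 1.82 (SE 0.69) became 0.70 with a pseudocount of 1. *Igf1*, *Igfbp3*, *Igfbp5* and *Igfbp7* did not pass and get no fold change.

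**Figure D2:**
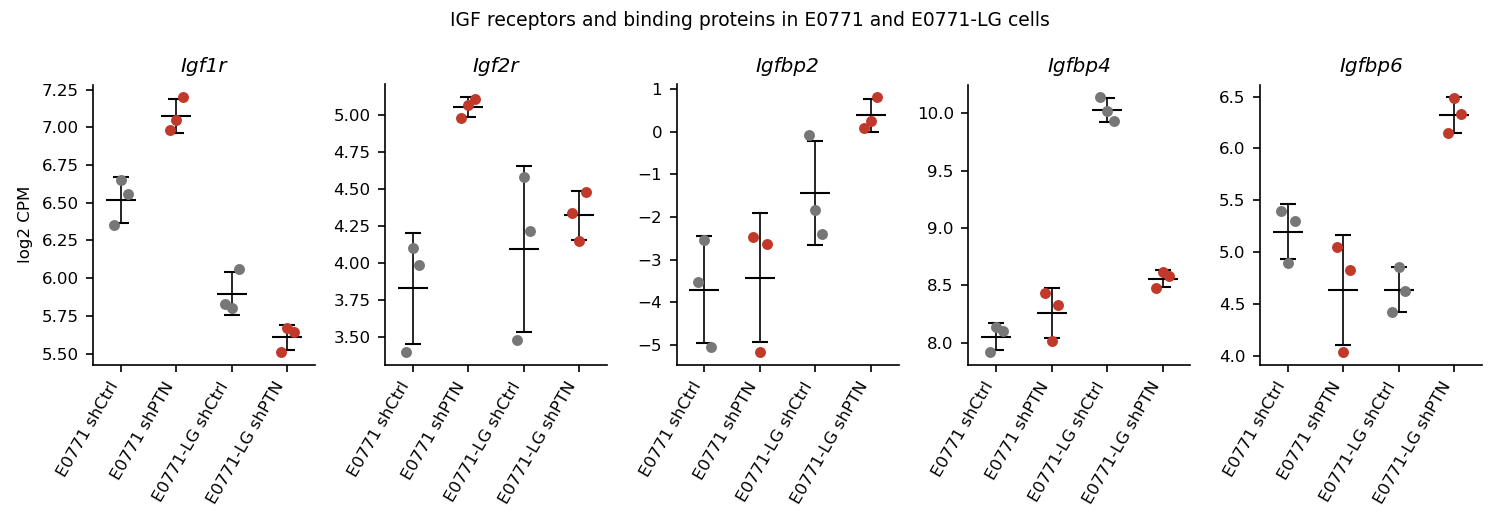
Log2 CPM of the 5 members that passed the filter in at least 1 cell line, each point a sample, with the mean and SD of 3 samples per group (grey shCtrl, red shPTN). The E0771 points of *Igfbp2* rest on 0 to 3 reads and lie at or near the floor. In E0771-LG cells the means are 10.03 and 8.56 for *Igfbp4* and 4.64 and 6.32 for *Igfbp6* (no test), while *Igf1r* and *Igf2r* rise in E0771 cells.

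In E0771 cells the knockdown samples had more RNA of both receptors, and no detected binding protein passed the test. *Igf1r* had log2 CPM of 6.35, 6.65 and 6.56 in shCtrl and 6.98, 7.05 and 7.20 in shPTN samples. Each of the 3 shPTN samples exceeded each control, and the rise was 1.47-fold (log2 fold change 0.56, SE 0.10, limma adjusted p = 0.00366). *Igf2r* had 3.40, 4.10 and 3.99 in shCtrl against 4.98, 5.07 and 5.11 in shPTN samples. Here too all 3 shPTN samples were the higher ones, with a 2.34-fold rise (log2 fold change 1.22, SE 0.18, limma adjusted p = 0.00106). The *Igf1r* call was lost when all 24 samples shared 1 estimate of spread (adjusted p = 0.223 by limma; 0.000605 to 0.223 over all alternatives).

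Neither binding protein tested in E0771 cells had groups apart. *Igfbp4* had log2 CPM of 7.92, 8.14 and 8.10 in shCtrl and 8.43, 8.02 and 8.33 in shPTN samples, which overlap (log2 fold change 0.21, SE 0.11, limma adjusted p = 0.219). Without E0771 shPTN replicate 2, its lowest knockdown sample, the log2 fold change was 0.33 and passed (limma adjusted p = 0.0249; 0.0249 to 0.665 over all alternatives). *Igfbp6* had 5.40, 4.90 and 5.30 against 5.05, 4.04 and 4.83. Its groups overlap because shPTN replicate 1 exceeds shCtrl replicate 2, and the difference did not pass (log2 fold change -0.56, SE 0.25, limma adjusted p = 0.145). It passed only with a replicate block (limma adjusted p = 0.0077; 0.0077 to 0.566 over all alternatives). In all, 4 members were tested in E0771 cells and 2 rose, against 8.89% of all genes tested called higher, 11.7% lower and 20.6% either way; 3 of the 4 had an unadjusted p under 0.05, as did 3541 of all 10394 genes tested. Groups did not overlap for 2 of the 4, and for 39.4% of all genes tested. Of the 5 members that did not pass the filter, *Igfbp7* had 0 to 2 reads in shCtrl and 2 to 6 in shPTN samples. The samples are described as biological replicates, without saying whether the 3 of a cell group were separate cultures, so p-values for the cell lines measure only the spread between these samples.

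Set side by side, the log2 difference in E0771-LG minus that in E0771 cells was -0.85 for *Igf1r*, -0.99 for *Igf2r*, -1.68 for *Igfbp4* and 2.24 for *Igfbp6*. These differences between lines were not tested for the members. *Igf1r* is the member whose samples moved wholly upward in 1 line and wholly downward in the other.

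The control cells show how the lines differ before any knockdown, in a comparison that shares its shCtrl samples with the knockdown contrasts. The median log2 fold change of all genes, E0771-LG against E0771, was -0.15 and became 0.00 under median-of-ratios scaling, so values under that scaling are given as well. Marker sums differed too: the epithelial sum was 99.2 to 114 CPM in E0771 and 158 to 204 in E0771-LG controls (2 of 2 tested markers higher). The adipocyte (1 of 1 higher), endothelial (1 of 1 lower) and skeletal muscle sums did not overlap either (all 3 muscle markers tested passed the filter through 1 line alone, so their calls are not counted), while the other lists' sums did. Of all genes tested between the control lines, 19.2% were called higher and 35.3% lower. The part of these marker sums in the member values was not tested. *Igfbp4* was 3.94-fold higher in E0771-LG cells (log2 fold change 1.98, SE 0.10, and 2.13 after scaling), which is not tested because the same E0771-LG controls chose it. *Igf1r* was lower in all 3 E0771-LG samples than in any E0771 sample (log2 fold change -0.62, SE 0.12, limma adjusted p = 0.00147; -0.47 after scaling, adjusted p = 0.00653). *Igfbp6* was lower as well (log2 fold change -0.56, SE 0.16, limma adjusted p = 0.0153; -0.41 after scaling, adjusted p = 0.0499), with no overlap between the groups. *Igf2r* did not pass (log2 fold change 0.26, SE 0.29, limma adjusted p = 0.47; 0.41 after scaling, adjusted p = 0.235, and 0.63 after quantile scaling, adjusted p = 0.0526).

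These calls depended on the setting. With 1 spread for all 24 samples, neither *Igf1r* (limma adjusted p = 0.0615) nor *Igfbp6* (limma adjusted p = 0.369) passed. *Igfbp6* also missed the threshold under quantile scaling (log2 fold change -0.29, limma adjusted p = 0.144), without E0771 shCtrl replicate 1 (-0.46, limma adjusted p = 0.0651) and without E0771 shCtrl replicate 3 (-0.51, limma adjusted p = 0.0649). *Igf2r* passed without E0771-LG shCtrl replicate 1 (0.57, limma adjusted p = 0.0488). Over all alternatives the adjusted p ran from 0.000392 to 0.0615 for *Igf1r*, from 0.0067 to 0.369 for *Igfbp6* and from 0.0488 to 0.952 for *Igf2r*. The 2 lower calls among 3 members tested stand beside 35.3% of all genes tested called lower, 19.2% higher and 54.5% either way. Among the calls of all genes, 35.3% were higher, and 50.2% were higher after median-of-ratios scaling.

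In 4T1 tumors no member passed between 3B10 and C44. With 3 tumors per group and an SE of up to 0.82 (*Igfbp5*), this does not show that the members were unchanged. *Igfbp4*, the most abundant member, had deposited log2 values of 10.16, 9.89 and 10.12 under C44 and 9.98, 10.03 and 9.67 under 3B10. *Igf1r* had 5.22, 5.11 and 3.76 against 4.09, 4.72 and 4.27. In both cases the groups overlap. The widest spread was in *Igfbp5*, with 2.47, 2.90 and 1.92 under C44 and 0.96, 4.64 and 3.05 under 3B10. 8 members passed the filter, all but *Igfbp2*, and the log2 fold changes ran from -0.34 (*Igf1r*) to 0.45 (*Igfbp5*). Of these, *Igf1* reached the filter level in every 3B10 sample but in only 2 C44 samples. Single samples set some directions: without 3B10 replicate 2, *Igfbp5* was -0.43, *Igfbp3* -0.21 and *Igfbp7* -0.12, while *Igfbp6* was 0.04 without 3B10 replicate 3. Without C44 replicate 1, *Igfbp3* was -0.21 and *Igfbp7* -0.20. 0 of 8 were called by limma, with 0 at an unadjusted p under 0.05 and a smallest unadjusted p of 0.281 (*Igfbp4*). Of all 11467 genes tested, 0% were called, and 719 had an unadjusted p under 0.05.

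The 4T1 groups differed in other ways. The summed level of 6 mammary epithelial markers was 3282, 3567 and 3556 under C44 and 4875, 4647 and 5233 under 3B10, with *Krt18* the most abundant for its length. That of 8 leukocyte markers was 3717, 3700 and 4092 against 2486, 3674 and 2305 (*C1qa* the most abundant), and that of 5 skeletal muscle markers at most 27.3 under C44 against 40.9, 179 and 268 under 3B10 (*Tnnt3* the most abundant). None of these sums overlapped between groups, though no marker was called, while the fibroblast, endothelial, myoepithelial and adipocyte sums overlapped. Their part in the values of the IGF members was not tested. In bulk tumor RNA, fewer cells of a type and less RNA per cell cannot be told apart.

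In *MMTV-PyMT* tumors, too, no member passed. *Igfbp5*, which mammary epithelium makes strongly as the gland involutes, had log2 CPM of 13.32, 13.74 and 13.26 under C44 and 13.50, 13.65 and 13.97 under 3B10. By CPM, not divided by length, it was the most abundant gene of the whole table in C44 replicate 2 and 3B10 replicate 3. Its groups overlap (log2 fold change 0.26, SE 0.26, limma adjusted p = 1). *Igfbp3*, the main serum carrier of IGFs, had 7.78, 6.94 and 6.69 against 5.76, 6.82 and 6.93, the lowest log2 fold change (-0.63, SE 0.38). The highest was that of *Igfbp6* (0.61, SE 0.75), with 2.45, 2.82 and 0.60 against 3.89, 1.83 and 1.97. Its direction turned without 3B10 replicate 1 (-0.06) or C44 replicate 3 (-0.07). *Igfbp2* (-0.34) and *Igfbp7* (-0.02) turned without C44 replicate 3, and *Igf1* (0.31) and *Igfbp4* (0.09) without C44 replicate 2. Without 3B10 replicate 3, *Igf1* (0.08), *Igfbp2* (-0.11) and *Igfbp4* (0.06) turned. The groups of all 9 members overlapped. 0 of 9 were called by limma on log2 values and 0 with voom weights, with 0 at an unadjusted p under 0.05 by either, and the smallest unadjusted p was 0.135 (*Igf1r*). Of all genes tested, 0% were called, and 307 had an unadjusted p under 0.05. *Ptn* RNA, which an antibody to the protein need not alter, was 2.98 (SD 0.38) under C44 and 3.49 (SD 0.66) under 3B10. Depth did not overlap between the groups, with 18.69 to 19.18 M reads on table genes under C44 and 16.20 to 18.36 M under 3B10, and its part was not tested. The summed levels of all 7 marker lists overlapped.

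The difference of the 3B10 effect between the tumor models (*MMTV-PyMT* minus 4T1) ranged from -0.81 for *Igfbp3* (SE 0.70) to 0.82 for *Igfbp6* (SE 0.89) over the 8 members tested. 0 were called by the limma interaction term, with 0 at an unadjusted p under 0.05. Of all genes tested, 0% were called, and 252 had an unadjusted p under 0.05.

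**Figure D3:**
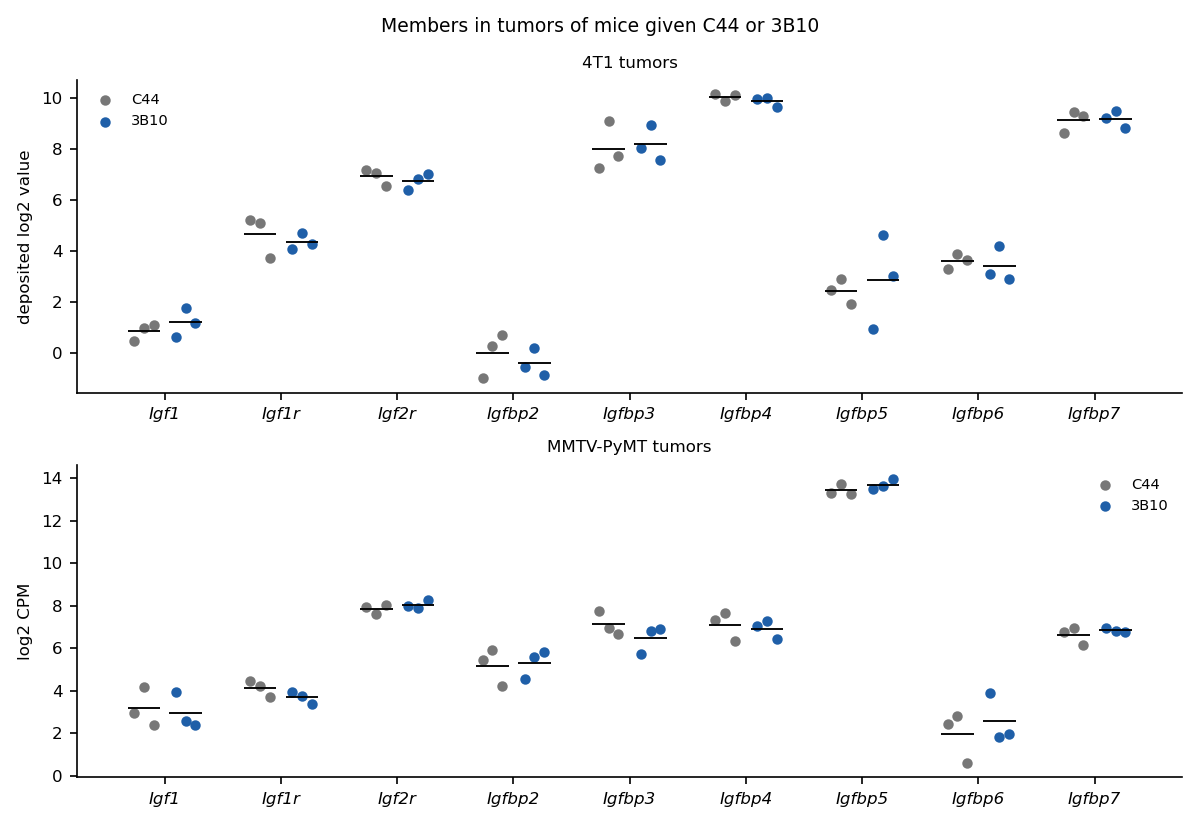
Log2 values of the 9 members in 4T1 tumors (top, deposited scale) and *MMTV-PyMT* tumors (bottom, log2 CPM), each point a tumor and each line a mean of 3 (grey C44, blue 3B10). The groups overlap for every member, and *Igfbp5* is the highest member in *MMTV-PyMT* tumors (13.26 to 13.97).

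**Figure D4:**
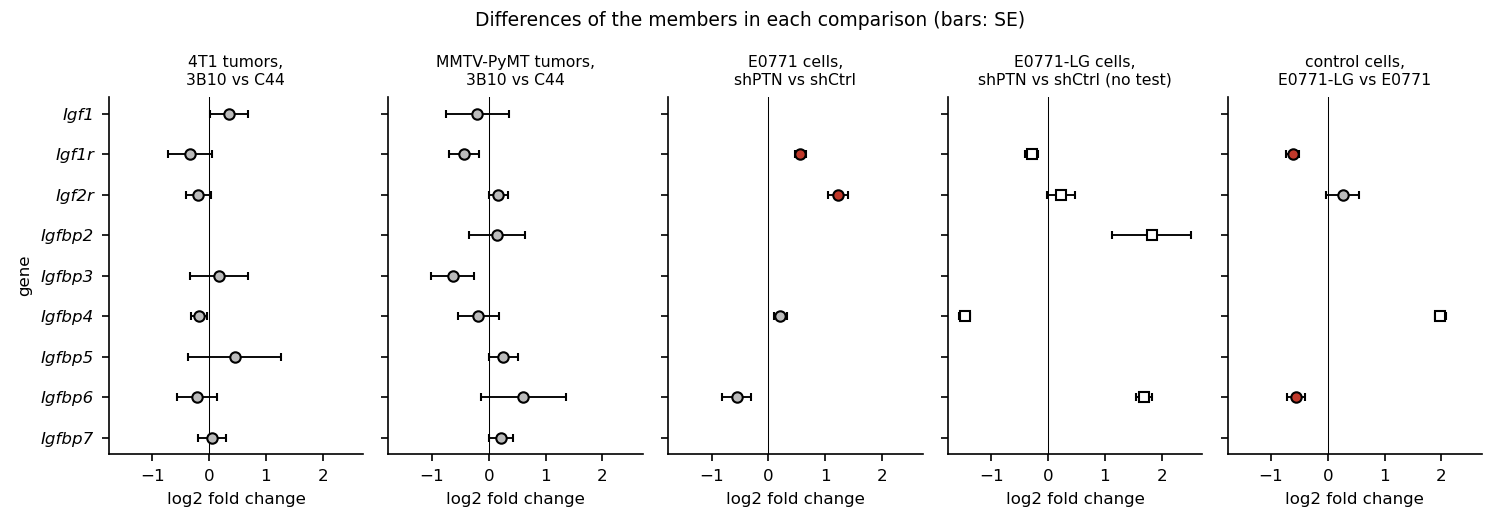
Log2 fold change of each member that passed the filter, with its SE, in the 5 comparisons; red circles had an adjusted p under 0.05, grey circles did not, and open squares were not tested. Red are *Igf1r* (0.56) and *Igf2r* (1.22) in E0771 cells and *Igf1r* (-0.62) and *Igfbp6* (-0.56) between the control lines.

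The rest of the IGF pathway was followed in lists of 72 genes, of which 63 were in the table. In 4T1 tumors 0 of 60 tested were called by limma (2 at an unadjusted p under 0.05), and in *MMTV-PyMT* tumors 0 of 61 (1 at an unadjusted p under 0.05; 0 and 1 with voom weights).

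In E0771 cells 12 of 57 pathway genes passed (21.1%, against 20.6% of all genes), 5 higher and 7 lower. The IGFBP protease *Htra1* rose 3.58-fold (log2 fold change 1.84, SE 0.09, limma adjusted p = 2.02e-06). The insulin receptor *Insr* fell to 46.0% (log2 fold change -1.12, SE 0.13, limma adjusted p = 0.000249). For both genes, all 3 knockdown samples lay on 1 side of all 3 controls. The same held for the PI3K regulatory subunit *Pik3r3* (0.57), for *Nagpa* (0.50), which uncovers the mannose 6-phosphate tag, for the sorting adaptor *Gga3* (0.48), for the receptor adaptor *Grb14* (-0.84) and for the kinase *Pdpk1* (-0.58), all past the limma threshold. With 1 spread for all 24 samples 5 pathway genes passed, and *Pik3r3*, *Gga3*, *Grb14* and *Pdpk1* were no longer among them. Without E0771 shPTN replicate 3, 7 passed, 1 of them higher, and the calls of *Pik3r3* (0.55), *Nagpa* (0.55) and *Gga3* (0.46) were lost. Without shCtrl replicate 2 those of *Nagpa* (0.39) and *Grb14* (-0.66) were lost, and without shCtrl replicate 3 that of *Pik3r3* (0.49), with 3 higher calls in each case.

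In E0771-LG cells 36 of 57 pathway genes passed (63.2%, against 46.4% of all genes), 9 higher and 27 lower, with a median log2 fold change of -0.27 against 0.05 for all genes. The PI3K, AKT and mTOR list held 3 higher and 17 lower among 24 tested, with a median of -0.40. *Pik3r3* fell to 25.1% (log2 fold change -1.99, SE 0.25, limma adjusted p = 0.000185). *Pdpk1*, which phosphorylates AKT, fell to 49.7% (log2 fold change -1.01, SE 0.11, limma adjusted p = 7.52e-05), the phosphatase *Ptpn11* to 49.8% (log2 fold change -1.01, SE 0.10, limma adjusted p = 6.95e-05) and *Insr* to 52.5% (log2 fold change -0.93, SE 0.11, limma adjusted p = 0.000125). Higher were *Htra1* (1.19), the phosphotransferase subunit *Gnptg* (0.80), the translation repressor *Eif4ebp1* (0.63) and the mTORC1 activator *Rheb* (0.62), in all 3 knockdown samples and past the limma threshold. *Pappa2*, a pappalysin that cleaves some IGFBPs, was lower too (log2 fold change -0.85, SE 0.12, limma adjusted p = 0.000345), with no overlap between groups. *Igf2*, *Igfbp1* and *Pappa* were not in the table.

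**Figure D5:**
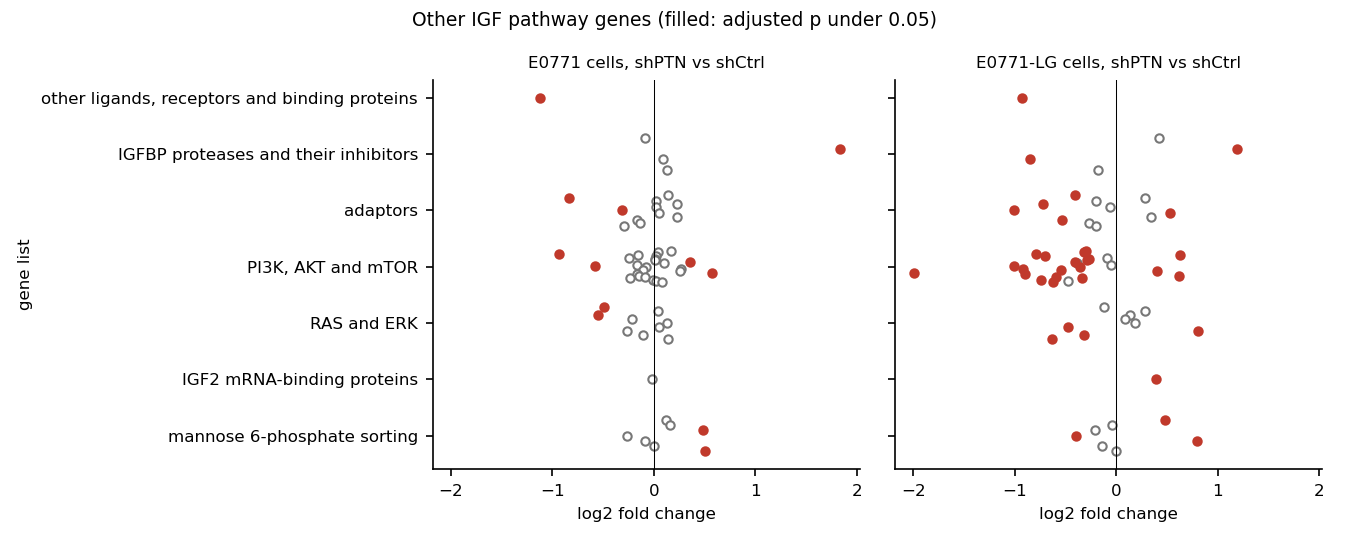
Log2 fold change, shPTN against shCtrl, of each IGF pathway gene that is not a member, by list, in E0771 (left) and E0771-LG cells (right); filled points had an adjusted p under 0.05. 12 points are filled at left and 36 at right, 20 of these in the PI3K, AKT and mTOR list.

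The effect of the knockdown on pathway genes was compared between the lines by a limma interaction term. 28 of 57 genes differed (49.1%, against 34.7% of all genes). For 20 of them the term was negative, meaning a log2 fold change lower in E0771-LG than in E0771 cells, not a lower level. With 1 spread for all 24 samples, 15 differed. *Pik3r3* differed most among the named genes (log2 difference -2.56, SE 0.26, limma adjusted p = 1.8e-05), being higher in all 3 knockdown samples of E0771 and lower in all 3 of E0771-LG cells. *Ptpn11* (-0.70, SE 0.12, limma adjusted p = 0.00089), *Gnptg* (0.89, SE 0.25, limma adjusted p = 0.0143), *Eif4ebp1* (0.78, SE 0.18, limma adjusted p = 0.00419) and *Rheb* (0.78, SE 0.15, limma adjusted p = 0.00158) also differed. *Insr* did not pass (0.19, SE 0.17, limma adjusted p = 0.394).

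Between the control lines 34 of 57 pathway genes passed (59.6%, against 54.5% of all genes), 15 higher and 19 lower in E0771-LG cells, or 17 and 14 after median-of-ratios scaling. *Stc1*, which inhibits pappalysins, was 4.86-fold higher in all 3 E0771-LG controls (log2 fold change 2.28, SE 0.30, limma adjusted p = 0.000154), with *Gga3* (0.88), *Pappa2* (0.83) and the phosphatase *Inppl1* (0.77) also higher. *Pappa2* missed the threshold with 1 spread for all 24 samples (limma adjusted p = 0.188). *Grb14* was lower (log2 fold change -1.92, SE 0.26, limma adjusted p = 0.000172), as were *Mapk3* (-1.54), the *Igf2* mRNA-binding protein gene *Igf2bp2* (-1.23) and *Braf* (-1.03), all without overlap between groups.

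The cells were checked against markers. Both lines expressed *Krt8* and *Epcam*, but *Cdh1*, *Krt18*, *Krt7* and *Krt19* were under 1 CPM in every shCtrl sample, so most of the defining mammary epithelial markers were absent or nearly so. *Krt19* had 0 reads in both shCtrl groups. In E0771-LG cells the epithelial sum was 158, 204 and 164 CPM in shCtrl and 424, 564 and 516 in shPTN samples, with 3 of 3 tested markers higher and *Krt8* the most abundant (within a list, abundance is per kb). *Krt18*, 1 of these 3, passed the filter through the shPTN samples alone, which favours a higher call. The myoepithelial sum was 59.3, 28.0 and 40.9 against 9.57, 10.3 and 7.46 (2 of 2 tested lower, *Acta2* the most abundant, *Krt5* at 0 reads in shCtrl). *Cnn1*, 1 of these 2, reached the filter level in 3 shCtrl samples but only 1 shPTN sample, which favours a lower call. The fibroblast sum was 92.0, 145 and 107 against 58.3, 66.2 and 73.6 (1 higher and 2 lower of 6 tested, *Pdgfra* the most abundant, *Thy1* at 0 reads). Of the 3 fibroblast calls, that of *Col1a1* was of a marker that passed through shCtrl samples alone. *Dcn*, also called, reached the filter level in 3 shPTN but only 2 shCtrl samples. In E0771 cells the fibroblast sum was 74.8, 101 and 86.3 in shCtrl and 331, 293 and 330 in shPTN samples, with 5 of 5 tested markers higher. *Col1a2*, 1 of these 5, reached the filter level in 3 shPTN samples but only 1 shCtrl sample, which favours a higher call. *Col3a1* was the most abundant after knockdown, and *Lum* and *Thy1* had 0 reads in shCtrl. *Dcn*, under 1 CPM and not tested there, went the other way, with all 3 shPTN samples below all 3 controls. The E0771 myoepithelial sum was 40.7, 25.0 and 31.5 against 139, 212 and 144, with *Acta2* the 1 tested marker, higher, and *Krt5* at 0 reads in both groups, while the epithelial sums overlapped. Of all genes tested, 24.3% were called higher and 22.1% lower in E0771-LG cells, and 8.89% higher and 11.7% lower in E0771 cells. These shares stand beside every marker count for the knockdowns. The part of these marker changes in the member values was not tested.

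Other marker lists stayed low in the cells. Leukocyte sums were 4.68 to 16.2 CPM and overlapped between shCtrl and shPTN in both lines, with *Cd68* the most abundant per kb and *C1qa* at 0 reads in every group. In E0771-LG cells the overlapping sum held 1 marker higher and 1 lower of 2 tested, and in E0771 cells 0 of 1 was called. The higher marker, *Cd68*, reached the filter level in 3 shPTN but only 2 shCtrl samples of E0771-LG. The adipocyte sum was 10.9 to 18.3 CPM in E0771-LG shCtrl and 1.18 to 4.32 in E0771-LG shPTN samples, with 1 of 1 tested marker lower, and overlapped in E0771 cells (*Fabp4* the most abundant). The endothelial sum was 8.12 to 8.73 CPM in E0771 shCtrl samples and at least 11.1 in E0771 shPTN samples (1 of 1 tested marker higher), and overlapped in E0771-LG cells (*Tie1* the most abundant). The skeletal muscle sum was 5.39 to 7.20 CPM in E0771 shCtrl and 13.5 to 15.0 in E0771 shPTN samples (1 of 2 tested higher). It overlapped in E0771-LG cells (1 of 2 lower), with *Myh4* at 0 reads throughout. The lower marker, *Acta1*, reached the filter level in 3 shCtrl but only 2 shPTN samples of E0771-LG. The part of these lists in the member values was not tested.

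The genes whose centred log2 CPM lay closest to that of *Igfbp4* across the 12 cell samples were, among 10215 genes compared, *Met*, with a root mean square difference of 0.28, *Lrrc8d* (0.30), *Slc16a6* (0.31), *Aqp1* (0.32) and *Sema3a* (0.33). The median over all genes compared was 0.89, and the other detected members were farther away, *Igf2r* at 1.03, *Igf1r* at 1.18 and *Igfbp6* at 1.20. *Met*, the hepatocyte growth factor receptor, had group means of 6.96 in E0771 shCtrl, 6.97 in E0771 shPTN, 8.57 in E0771-LG shCtrl and 7.19 in E0771-LG shPTN cells. These ranks describe the pattern that chose *Igfbp4*, and no test was made of them.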

How the data were processed

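The authors used HISAT2 (mm10) for alignment, featureCounts for counting, and limma and edgeR after that; their versions are not given. The deposited table holds log2 values as made by the authors, in a step the labels do not state. In 18 of the 24 samples the log2 values map back to whole reads with a 0.5-read offset, within 0.02 reads plus a rounding allowance that grows with the count, and were read as log2 CPM. The 6 4T1 samples do not, and relative to E0771-LG shCtrl their values fall with log2 gene length (slope -0.728, against 0.019 in *MMTV-PyMT*), so 4T1 levels were compared within 4T1 only. The tumor interaction compares the 3B10 effects of the models, and the fit of all 24 samples pools the 4T1 spread with that of the others. Depth was 15.56 to 21.01 M reads on table genes (median 18.16) and is unknown for 4T1.

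Each contrast was fitted by limma 3.58.1 in R 4.3.3 on log2 values with trend and robust settings. Genes needed a level of at least 1 in at least 3 samples. p-values were adjusted over all genes tested by Benjamini-Hochberg, and called means adjusted p under 0.05. Named pathway genes were up to 4 per direction and contrast with the largest fold change among those called with no overlap between groups; a result withheld for evaluation is not reported here. Tables and plots used Python 3.11.15, numpy 2.4.6, pandas 2.3.3 and matplotlib 3.10.9.

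Alternatives were other filters, quantile and median-of-ratios scaling, voom, a pseudocount of 1, a replicate block, a fit of all 24 samples and leaving out each sample. Marker lists were mammary epithelial, myoepithelial, fibroblast, endothelial, leukocyte, adipocyte and skeletal muscle. Members and lists were chosen with earlier results of these data known.

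Limits: each group has 3 samples. The members have no test in E0771-LG cells, *Igfbp4* has none between the lines, and the members have none for the difference between lines. The E0771-LG knockdown contrast shares its controls with the comparison of lines, as does the E0771 contrast. *Igf2*, *Igfbp1* and *Pappa* are not in the table, so no statement covers them. RNA levels say nothing about secreted, bound or cleaved protein. The knockdown used a single shRNA construct, and cell groups were selected separately.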

Additional observations from a re-analysis of the deposited data

Results flagged for a closer look

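Differences between the lines, as the shPTN effect in E0771-LG minus that in E0771 cells in log2 units: *Igf1r* -0.85, not tested, with all 3 knockdown samples above the controls in E0771 and all 3 below in E0771-LG cells. By the limma interaction term with Benjamini-Hochberg adjustment, *Pik3r3* differed by -2.56 (adjusted p = 1.8e-05), *Gnptg* by 0.89 (limma adjusted p = 0.0143), *Eif4ebp1* by 0.78 (limma adjusted p = 0.00419), *Rheb* by 0.78 (limma adjusted p = 0.00158) and *Ptpn11* by -0.70 (limma adjusted p = 0.00089).

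*Htra1* differed by -0.65 (limma adjusted p = 0.00733) and *Gga3* by -0.69 (limma adjusted p = 0.00206). Both calls were lost in the fit of all 24 samples (limma adjusted p = 0.258 and 0.0729). *Grb14* differed by 1.11 (limma adjusted p = 0.0464) and lost its call in most settings, among them quantile scaling (0.85) and leaving out E0771-LG shPTN replicate 3 (0.91). *Pdpk1* differed by -0.42 (limma adjusted p = 0.0249), which was lost under quantile scaling (-0.34) and without E0771-LG shPTN replicate 2 (-0.37), among others. The causes of these differences were not tested.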

How the results depend on the processing

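Of 82 results under all alternatives, 1191 values kept their call and direction, 37 lost a call, 3 gained one, 16 turned direction and 16 counts or values moved. The fit of all 24 samples left 1 member called in E0771 cells, 5 pathway genes called there, 0 members called between the control lines and 15 pathway genes whose effect differs between lines. Quantile scaling left 1 member called between the lines and turned *Igfbp7* in 4T1 to -0.01. With a replicate block, *Igfbp6* in E0771 cells was -0.56 with limma adjusted p = 0.0077. The labels do not say that same-numbered samples pair. Deviations from the group mean correlated between same-numbered E0771 samples at -0.0274, 0.141 and -0.0366. Leaving out single samples gave 7 to 15 pathway genes in E0771 cells and 1 to 3 members between the lines. In 4T1 tumors the log2 fold change then ran from -0.21 to 0.71 (*Igfbp3*), -0.43 to 1.41 (*Igfbp5*), -0.62 to 0.04 (*Igfbp6*) and -0.20 to 0.22 (*Igfbp7*). In *MMTV-PyMT* tumors it ran from -0.68 to 0.31 (*Igf1*), -0.34 to 0.52 (*Igfbp2*), -0.56 to 0.09 (*Igfbp4*), -0.07 to 1.04 (*Igfbp6*) and -0.02 to 0.39 (*Igfbp7*). Not run were voom for 4T1 and the tumor interaction, and other filters for the interaction fits; the cause was not tested.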
